A study of Caenorhabditis elegans with 2 samples.

Results

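The regions described here are bins of 1 kb in the genome of the nematode Caenorhabditis elegans whose small RNA signal in the wild-type strain N2 was not a whole number of reads. Such values can arise when reads that match several sites are divided among them, but the labels do not say how those reads were treated, so the source of the fractions is not established here. A bin was taken when its deposited N2 value lay from 2 to 20 and, after the floor of 0.1 that every bin carries was subtracted and the rest divided by the value of 1 read (0.232), stood further than 0.0055 in signal from a whole number. Of the 100257 bins, 4349 met this rule and are called fractional bins. The 7201 bins of the same N2 range that lay on a whole number are called whole-read bins and serve for comparison. The range corresponds to 8.18 to 85.7 reads per bin.

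The series holds 2 libraries of small RNA from young adult hermaphrodites, 1 per group and without replicates. The first is labelled as small RNA from strain N2. The second is small RNA bound to precipitated HRDE-1 (coIP); per the labels, HRDE-1 carried a FLAG and StrepII tag and was pulled from a lysate of ground, pooled adult worms with an anti-FLAG resin. Both carry the same protocol text, so whether the N2 library was whole lysate or a mock pull-down is not stated, and the genotype of the tagged worms is given only as "HRDE-1-coIP". Cloning did not depend on a 5′ monophosphate, so small RNAs with a triphosphate end were captured as well. The read equivalents in the bins summed to 2161930 for N2 and 4828515 for the coIP.

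HRDE-1 belongs to the Argonaute proteins and acts in the nuclei of the germline. In the worm, RNA-dependent RNA polymerases copy target transcripts into short antisense RNAs with a 5′ guanine, and HRDE-1 binds such RNAs and carries the silencing of their targets through the nucleus and across generations. Retrotransposons and other repeated elements are known targets, and repeats and duplicated genes are commoner on the arms of worm chromosomes than in the centres. A small RNA from a repeated element often matches every copy equally, so its place of origin cannot be read from its sequence.

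The fractional bins were chosen by their N2 values, so their N2 level is a description. Their N2 signal had a median of 4.63 and quartiles of 2.91 and 8.52, against a median of 3.82 and quartiles of 2.65 and 6.37 in whole-read bins. From an N2 of 1 upward, the share of bins off a whole number rose with N2 level, from 28.8% at 1 to 2 through 32.7% at 2 to 5 and 41.4% at 5 to 10 to 52.1% at 10 to 20. Below that it did not: it was 29.4% at 0.33 to 0.5 and 26.7% at 0.5 to 1, and all bins with less than 1 read were off by definition. The fractional bin nearest the limit stood 0.00554 from a whole number and the nearest whole-read bins 0.00542. At the lower edge, the 175 fractional bins of N2 up to 2.10 had a median log2 ratio of coIP over N2 of 0.90, and the 172 off-step bins of N2 1.90 to 1.99, just outside, of 0.48. At the upper edge, the medians were -1.03 for the 115 fractional bins of N2 18 to 20 and -0.50 for the 93 off-step bins just above 20.

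The rule asks only that some part of 1 read be left over, and the remainders show how small that part often was. In 948 of the 4349 bins (21.8%) the signal stood up to 0.1 read above a whole number, a window that covers 8.01% of the possible remainders, and only 178 (4.09%) stood up to 0.1 read below one. Remainders of 1/2, within the tolerance of 0.0237 read, were found in 625 bins (14.4%), in a window of 4.97%. Remainders of 1/3 or 2/3 were found in 8.78% and of 1/4 or 3/4 in 7.68%, each in windows of 9.94%. Some narrow classes also stood above those beside them. In classes of 0.02 read, 104 bins lay at 0.34 to 0.36, between classes of 74 and 55, and 84 lay at 0.64 to 0.66, between 51 and 66. The classes at 0.82 to 0.84 and 0.84 to 0.86 held 74 and 68, between 52 and 39. Deposited values are rounded in steps of about 0.0431 read, wider than a class, so peaks of this width are not resolved. Bins with less than 1 N2 read, outside the range, showed the parts by themselves: of 11790 such bins, 4078 held a value of 0.11, or about 0.0431 read after rounding, and 752 a value of 0.22, near 1/2 of a read. The rule therefore does not measure which part of a bin's signal was fractional in origin, and a whole-read bin may hold parts of reads that add up to a whole number or fall under the tolerance.

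**Figure D1:**
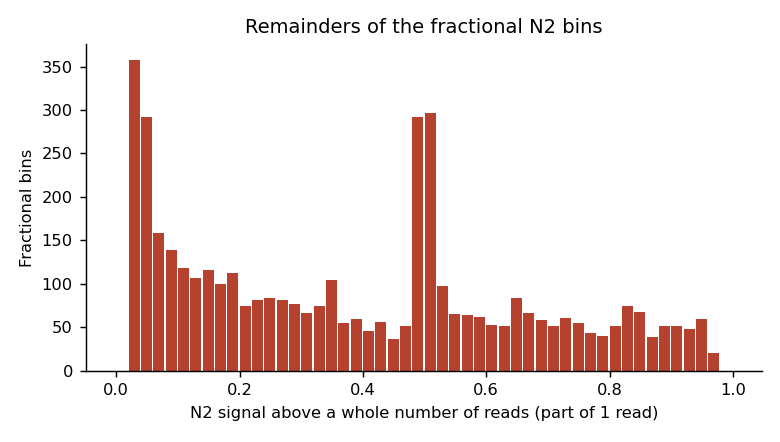
Number of fractional N2 bins (vertical axis) by the part of 1 read by which their N2 signal exceeded a whole number of reads (horizontal axis, classes of 0.02 read). The 948 bins up to 0.1 read form the highest part on the left, and the 625 bins at 1/2 form the peak in the middle.

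The remainders were also compared with the next bin and with the other library. Of the 2238 fractional bins followed by another off-step bin, 164 (7.33%) had a remainder that added up to a whole number with that of the next bin. A window of this width covers 4.74% of all values. For whole-read bins followed by an off-step bin the count was 89 of 1724 (5.16%). That share is no control, because the rule itself puts the first bin on a whole number and the next one off it. In the coIP library, which the rule did not use and in which 1 read was worth 0.169, 3676 of the 4349 fractional bins (84.5%, exact binomial 95% interval 83.4 to 85.6) lay off a whole number of reads, against 4539 of 7201 whole-read bins (63.0%, 61.9 to 64.1). The difference was carried by bins of low coIP signal. At coIP values under 10 the shares were 76.5% and 47.9%. At 20 and over they were 93.7% and 94.1%, where values spread evenly would give 93.5%, so that no difference could show. Over all coIP levels, bins off a whole number in N2 were more often off it in the coIP as well. The intervals given for shares of bins take bins as independent.

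Fractional bins more often had an off-step neighbour than whole-read bins did, but they did not form more runs of their own kind. An adjacent off-step bin of any N2 level was found for 3147 of them (72.4%), against 2845 whole-read bins (39.5%), and off-step bins stood on both sides of 30.1% and 6.96%. Counted as unbroken rows of fractional bins, they formed 3265 runs, of which 2530 were a single bin, 178 had at least 3 bins and 41 at least 5. The whole-read bins, which are more numerous, formed 4949 runs, of which 3512 were a single bin, 500 had at least 3 bins and 71 at least 5. Runs of at least 3 bins held 16.2% of the fractional and 25.2% of the whole-read bins. The longest run had 18 bins among the fractional and 10 among the whole-read bins. Of the 178 fractional runs of at least 3 bins, 116 (65.2%) lay in chromosome arms (here the first and last 30% of each chromosome). That was near the 63.0% of all fractional bins. The median log2 ratio of coIP over N2 within the run was above 0 in 142 of these runs. Taken bin by bin, 62.2% of all 4349 fractional bins were above 0, with the bins of these runs included. Whole-read runs were not counted in this way.

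The coIP signal was higher over fractional than over whole-read bins in the median, by more over all arms than over all centres. Ratios were taken after each library was set to parts of 1000000 of its own sum, with a pseudocount of 0.121 parts, and are given as log2 of coIP over N2. The median over fractional bins was 0.67 (quartiles -1.20 and 1.78) and over whole-read bins 0.09 (-1.19 and 1.30), a difference of 0.58. The coIP signal as deposited had a median of 10.3 (quartiles 3.14 and 32.3) in fractional bins and of 6.56 (2.81 and 16.9) in whole-read bins. The quartiles overlap widely, and with 1 library per group no replicate error exists for any of these values. Both medians are to be read against the shift of the median measured bin of the table, 0.73 under this scaling (a bin counts as measured when the mean of both libraries is at least 0.351 parts). Other scalings moved both medians by nearly the same amount and left their difference at 0.58. With 1 bin per run the difference was 0.37, and with a tolerance of 0.003, which takes in whole-read bins, it was 0.29.

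In arms, the 2742 fractional bins had a median log2 ratio of 0.99 (quartiles -0.59 and 1.99) and the 3287 whole-read bins of 0.22 (-1.11 and 1.81). In centres the medians were 0.07 over 1607 fractional bins and 0.03 over 3914 whole-read bins. The fractional bins thus differed by 0.92 between arms and centres and the whole-read bins by 0.19. The same order was found within each band of N2 signal. In arms the fractional median exceeded the whole-read one by 0.74 at N2 of 2 to 5, by 0.74 at 5 to 10 and by 0.85 at 10 to 20. In centres the excess was 0.13, 0.12 and 0.68.

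**Figure D2:**
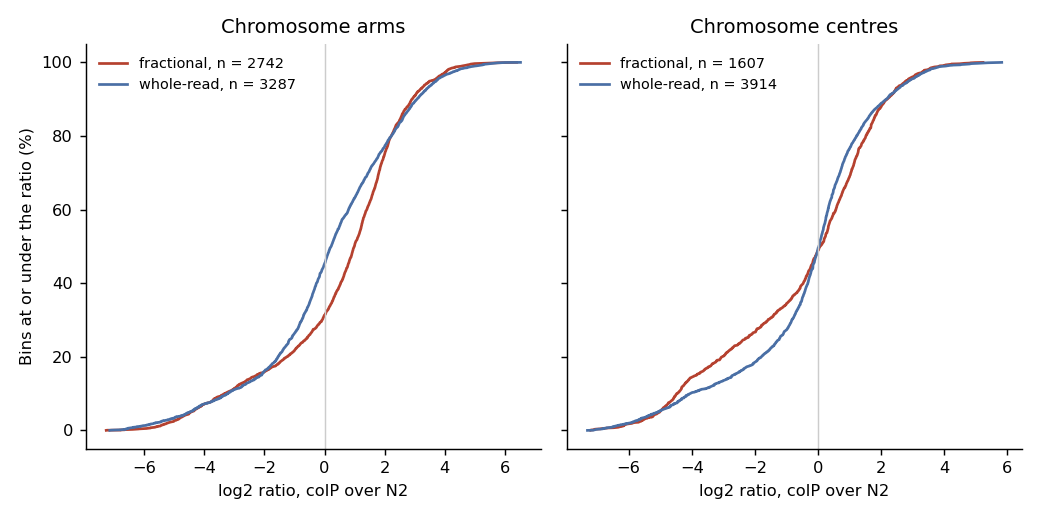
Cumulative share of bins (vertical axis, %) at or under a given log2 ratio of coIP over N2 (horizontal axis), for fractional and whole-read bins, in arms on the left and centres on the right. In arms the fractional curve lies to the right of the whole-read curve over the middle of the distribution (medians 0.99 and 0.22) and meets it at high ratios; in centres the medians nearly coincide (0.07 and 0.03) and the fractional curve starts earlier at low ratios.

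The medians do not carry over to the summed signal. Fractional bins together held 5.43% of the N2 library (5.40 to 5.46) and 14.9% of the coIP library (14.8 to 14.9), a ratio of shares of 2.73. Whole-read bins held 7.30% and 19.6%, a ratio of 2.68. In arms the ratio of summed shares was 3.27 for fractional and 3.50 for whole-read bins, the opposite order from the medians, and in centres 1.82 and 1.95. Among bins with a coIP signal of 50 and over, the median log2 ratio was 2.63 in 686 fractional and 3.17 in 768 whole-read bins. That class is set by the coIP value and its fractional bins had more N2 signal (median 9.93 against 7.07), so the order of its ratios is a description only. These intervals treat read equivalents as counts, cover counting error only, and do not allow for a shared read entering several bins.

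Of the 4349 fractional bins, 876 (20.1%) had a coIP level 4-fold or more above N2 and 866 (19.9%) 4-fold or more below it. Among all 58910 measured bins 19.4% were higher and 9.04% lower, and over all bins with N2 of 2 to 20 17.9% were higher and 18.4% lower. The N2 range is part of that contrast and by itself raises the share of lower bins, so the counts against the whole table are given only as background. Whole-read bins of the same range were higher in 16.5% and lower in 17.4%. At 2-fold the shares of higher bins were 42.9% and 29.5%, and at 8-fold they were 7.20% and 7.32%. The higher fractional bins lay in arms in 77.6% of cases and the lower ones in 50.5%, against 63.0% of all fractional bins. The whole-read bins had a like order, with 63.3% of the higher and 42.2% of the lower ones in arms, against 45.6% of all whole-read bins.

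The N2 signal around higher and lower fractional bins is given as a description, because the ratio that defines them also uses N2, which was higher in the lower bins (median 6.57 against 4.54). A lower fractional bin held a median of 49.6% of the N2 signal found in a 5-bin window around it, and 141 of 866 (16.3%) held over 90%. A higher fractional bin held 27.9%, and 19 of 876 (2.17%) held over 90%. Of the lower bins, 19.2% held over 90% in arms and 13.3% in centres. Among whole-read bins the shares over 90% were 6.45% for lower and 2.36% for higher bins. In the authors' deposited table, 3149 fractional bins (72.4%) reached a p-value of 0.05 or less, 2021 with more and 1128 with less coIP signal. Of the whole-read bins, 4047 (56.2%) did in the authors' deposited table, 2227 with more and 1820 with less. Over all bins with N2 of 2 to 20 the share was 62.3% and over all measured bins 29.6% in the authors' deposited table.

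Taken over all chromosomes, fractional bins were spread almost evenly over arms and centres, and whole-read bins were not. Arms made up 60.0% of all bins and held 63.0% of the fractional bins (61.6 to 64.5) but 45.6% of the whole-read bins (44.5 to 46.8). In numbers, arms held 45.6 fractional and 54.6 whole-read bins per 1000 bins, and centres 40.1 and 97.6. Over all chromosomes together, whole-read bins of this N2 range were thus denser in centres. The larger fractional part of the arms came mainly from the smaller number of whole-read bins there. Chromosome X differed, with 64.9% of its whole-read and 77.6% of its fractional bins in arms. On the autosomes the arms held from 57.1% (III) to 63.9% (I) of the fractional bins. On each of the 6 chromosomes the share of fractional among N2 2 to 20 bins was larger in the arms, from 38.2% against 25.9% on III to 49.7% against 31.7% on V and 56.5% against 41.0% on X.

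**Figure D3:**
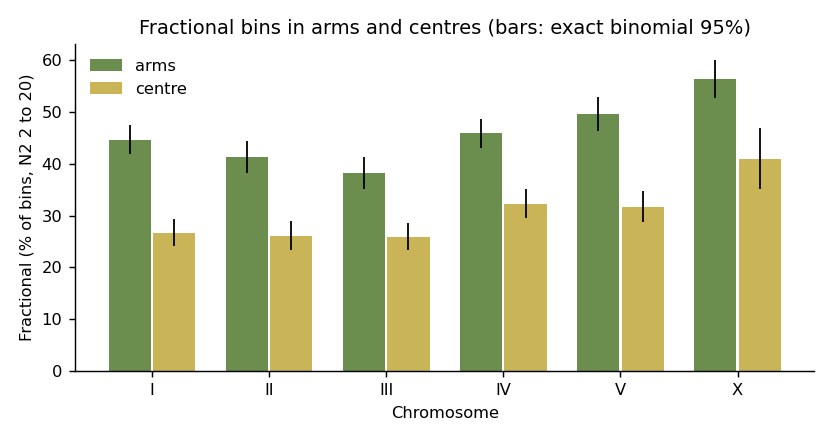
Share of fractional bins among all bins with N2 of 2 to 20 (vertical axis, %) for the arms and the centre of each chromosome (horizontal axis), with exact binomial 95% intervals that take bins as independent. The arms stand above the centre on every chromosome, and X stands highest in both (56.5% and 41.0%).

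By chromosome, the fractional bins numbered 832 on I, 674 on II, 655 on III, 920 on IV, 751 on V and 517 on X. Chromosome X, with 17.7% of all bins, held 11.9% of the fractional and 6.61% of the whole-read bins. On the arms of I, II, III, IV and V the fractional median log2 ratio was 1.22, 1.17, 0.90, 0.73 and 1.02, and the whole-read median 0.08, 0.34, 0.34, -0.33 and 0.39. Fractional bins were thus higher in the median on all 5 autosomes' arms, by 0.56 on III to 1.14 on I. In the centres of I, II, III, IV and V the fractional median was -0.018, -0.23, 0.32, -0.066 and 0.58, and the whole-read median 0.013, 0.011, 0.17, -0.17 and 0.030. The fractional bins were lower in the centres of I and II, and higher by 0.55 in the centre of V, close to the 0.63 in its arms.

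In the median, chromosome X went the other way, most in its centre. Its fractional bins had a median log2 ratio of 0.59 (95% bounds, bins taken as independent, 0.19 to 0.83). Its whole-read bins had one of 0.82 (0.44 to 1.22), so the bounds overlap. The 4-fold limit was passed upward by 20.1% of the fractional and 34.0% of the whole-read bins. The fractional bins of X had more N2 signal (median 5.43 against 3.82). In the arms of X the medians were 0.83 (0.56 to 1.10) and 0.94 (0.51 to 1.44), and the bounds again overlap. In its centre they were -2.09 over 116 fractional and 0.44 over 167 whole-read bins. Of those 116 bins, 60 (51.7%) passed the 4-fold limit downward, 15 upward and 41 neither way. Of the 167 whole-read bins there, 41 (24.6%) passed it downward and 56 (33.5%) upward. The 60 lower fractional bins had N2 values of 2.23 to 18.7 (median 6.52) and coIP values of 0.18 to 4.66 (median 0.77). Lower bins in the centre of the 5 autosomes were 24.7% of the fractional and 18.3% of the whole-read bins. Among the arms and centres of the 6 chromosomes, the centre of X had the lowest fractional median, and the next lowest was -0.23 in the centre of II. What the X bins contain was not analysed here, because the file names no genome build.

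The authors' marks GRTS and GRH were commoner among fractional bins. The file spells out neither; in published work on HRDE-1 they denote regions where germline nuclear RNAi acts by silencing transcription (GRTS) or by heterochromatin (GRH). In the authors' deposited table, 106 fractional bins (2.44%, 2.00 to 2.94) carried a mark, 50 of them GRTS and 61 GRH with 5 carrying both, against 50 whole-read bins (0.694%, 0.516 to 0.914). Of the 156 marked bins with N2 of 2 to 20, 67.9% were fractional, where 37.7% of all bins in that range were. The order held at N2 of 2 to 5 (1.13% against 0.253%), 5 to 10 (2.92% against 1.03%) and 10 to 20 (5.26% against 2.61%). Of the unmarked bins, 4.76% of the fractional and 1.24% of the whole-read ones lay within 3 kb of a mark. The marked bins were not independent. The paired V runs of 9 fractional bins described below held 3 GRTS bins each. Further GRTS bins of both kinds lay beside these runs. The intervals do not allow for this, and the shares were not computed without the pair. The sources do not say how the marks were set, and small RNA data may have entered into them.

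Marked fractional bins had a coIP excess much like that of marked whole-read bins. Their median log2 ratio was 1.58 (quartiles 1.13 and 2.01) over 106 bins and 1.47 (1.09 and 1.93) over 50 whole-read bins, and none of the 156 was at least 4-fold lower, where 20.4% of unmarked fractional bins were. For GRTS the medians were 1.45 and 1.41, and for GRH 1.72 and 1.49. Without the marked bins the fractional median was 0.62 and the whole-read median 0.08, a difference of 0.54.

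The marked fractional bins with the highest coIP signal all carried the GRH mark and lay in arms. The bin II 14317001 to 14318000 (positions as in the file) had 16.4 in N2 and 361 in the coIP, a ratio of library shares of 13.7 (counting interval 10.8 to 17.6). IV 13307001 to 13308000 had 12.4 and 331, a ratio of 16.5 (12.6 to 22.1), and II 12745001 to 12746000 had 12.1 and 289, a ratio of 14.98 (11.3 to 20.2). I 2634001 to 2635000, which carried GRTS as well, had 16.5 and 203, a ratio of 7.57 (5.96 to 9.76). IV 15514001 to 15515000 had 19.6 and 182, a ratio of 5.75 (4.60 to 7.26). The bin on IV at 13.3 Mb stood almost alone, with N2 values of 0.14 and 0.56 beside it, and the II bin at 12.7 Mb adjoined one of 61.5 in N2 and 842 in the coIP.

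The longest run of fractional bins repeated a pattern every 3 kb. It covered 18 bins at I 4340001 to 4358000, in the left arm, and carried no mark. Its N2 signal was even, from 4.36 to 7.70 with a median of 5.79, and its coIP signal ran from 1.65 to 35.6. The last bin of each 3 kb was high in the coIP, at 22.2, 17.5, 30.3, 34.8, 35.6 and 32.7, and the bins just before them were low, at 3.06, 3.08, 3.21, 3.71, 4.33 and 5.17. The bins after the high ones were 18.6, 23.5, 10.3, 5.15 and 3.44 along the run, preceded by 1.65 at its start. The period and the high and low bins were read from these same coIP values, so their log2 ratios are a description only. They were 1.03 to 1.78 in the high bins and -1.49 to -0.81 in the low ones. Bins 3 kb apart differed in the coIP by a median of 0.26 in log2 and bins 6 kb apart by 0.46, while at distances of 1, 2, 4 and 5 kb the medians were 2.24 to 2.70. In N2 the difference was also smallest at 3 kb, at 0.17, against 0.42 at 1 kb. Over the run as a whole the ratio of shares was 1.52 (1.36 to 1.69).

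**Figure D4:**
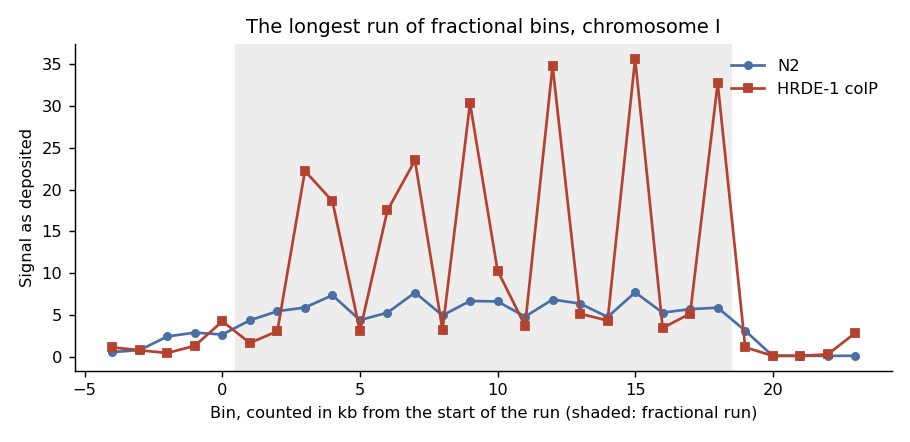
Signal as deposited (vertical axis) in each bin of the longest fractional run on chromosome I and 5 bins on either side (horizontal axis, kb from the start of the run), for N2 and the HRDE-1 coIP. Within the shaded run the coIP line is high in the last bin of each 3 kb, at 17.5 to 35.6. The bins beside the value of 17.5 include higher ones, at 18.6 and 23.5, so it is not a peak there. N2 stays between 4.36 and 7.70 in the run.

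The next longest runs were a pair with nearly the same profile. Runs of 9 fractional bins lay at V 8836001 to 8845000 and V 8878001 to 8887000, with starts 42 kb apart. The first held 102.3 in N2 and 371.6 in the coIP in sum, and the second 102.7 and 372.8. Along the first run N2 was 11.3, 17.0, 9.56, 8.16, 15.7, 13.5, 12.0, 8.15 and 6.98, and along the second 11.3, 14.2, 11.4, 9.96, 14.2, 14.7, 11.9, 7.45 and 7.75. The coIP values were 37.4, 56.7, 35.8, 34.2, 49.4, 57.9, 47.0, 32.3 and 20.9 in the first and 36.8, 46.7, 42.5, 39.0, 44.6, 61.1, 48.4, 31.4 and 22.2 in the second. Bin by bin the runs differed by at most 0.29 in log2 in N2 and 0.28 in the coIP. Each had a ratio of shares of 2.25 (2.03 to 2.50) and 3 GRTS bins.

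The likeness went beyond the runs. From V 8825001 to 8848000 and from V 8867001 to 8890000, all 23 bin pairs with N2 of at least 2 in both differed by at most 0.33 in log2 in either library, with medians of 0.10 in N2 and 0.09 in the coIP. Of these 23 bins, 15 in the first interval and 16 in the second were fractional, and 15 in each carried the GRTS mark. The sums over the 23 bins were 370.7 and 370.4 in N2 and 1523.9 and 1523.3 in the coIP. Values of such a pair are not independent, if a read that matches both was divided between them. The offset was chosen after the values were seen.

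**Figure D5:**
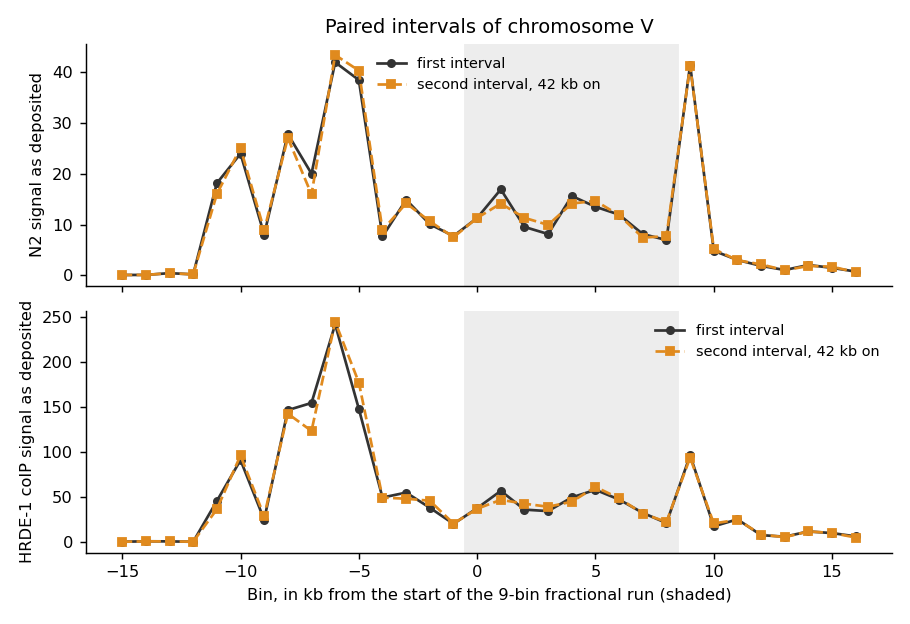
Signal as deposited (vertical axes) in N2 above and the HRDE-1 coIP below, bin by bin (horizontal axis, kb from the start of the 9-bin run), for the paired intervals of chromosome V. The lines of both intervals lie nearly on each other in either library; the shaded runs differ by at most 0.29 in log2.

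The other named runs had 9 bins each and no mark. At V 17629001 to 17638000, in the right arm, N2 was low at 2.70 to 5.94 and the coIP 10.5 to 49.9, with a ratio of shares of 4.71 (3.97 to 5.62). At II 13820001 to 13829000 N2 was 2.70 to 8.77 and the coIP narrow at 9.96 to 16.9, with a ratio of 1.49 (1.27 to 1.76). Over the 5 longest runs the ratio of shares thus ranged from 1.49 to 4.71.

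The fractional bins with the highest ratios lay in arms, were unmarked and had few N2 reads, which a ranking by ratio favours. Their counting intervals do not allow for the ranking. I 14091001 to 14092000 had 2.91 in N2 and 403 in the coIP, a ratio of shares of 88.99 with a counting interval of 50.8 to 172. IV 16788001 to 16789000 had 2.25 and 289, a ratio of 84.97 (44.7 to 186), and adjoined a bin of 23.8 and 1517. X 594001 to 595000 had 3.59 and 351, a ratio of 61.9 (37.4 to 111), and X 15798001 to 15799000 had 3.51 and 328, a ratio of 57.8 (34.97 to 104). II 420001 to 421000 had 5.27 and 421, a ratio of 50.7 (33.4 to 81.1). The last 2 adjoined fractional bins of like kind, with 2.79 and 223 on X and 7.98 and 492 on II.

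The fractional bins with the lowest ratios had ample N2 reads and almost none in the coIP. The ranking largely fixes this, because the coIP cannot fall under its floor and the lowest ratios then need a high N2. IV 5162001 to 5163000 had 18.6 in N2 with 79.8 reads, I 6500001 to 6501000 had 18.3 and I 6873001 to 6874000 had 18.1, and all stood at the floor in the coIP. IV 4977001 to 4978000 had 19.96 in N2 and 0.11 in the coIP, and V 9754001 to 9755000 had 19.7 and 0.13, in both cases under 1 coIP read. The upper limits of the ratios of shares were 0.0196 to 0.022. Of all fractional bins, 81 (1.86%) were at the coIP floor, against 240 whole-read bins (3.33%).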

How the data were processed

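Small RNA coverage was deposited for 2 libraries, N2 and the HRDE-1 coIP, as a signal per 1 kb bin. Bowtie 0.12.7 is named in the submitters' processing notes. How reads with several sites were treated, the total used for normalisation and the build are not given in the labels or the header. The deposited p-value per bin, whose method is not stated, and the GRTS and GRH marks are the authors'. No coordinates were converted, and no gene or sequence was assigned, because the build is not named.

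The value of 1 read was taken as 0.232 in N2, and the coIP value (0.169) was the step that put most low values on whole reads. Bins hold read equivalents, so no count test was run. With 1 library per group there is no test between groups: bins are described by medians, quartiles and shares, with exact intervals at 95%. For shares of bins these take bins as independent. For library shares and ratios of shares they cover counting error of read equivalents only. The named regions are the 5 longest runs (ties by coIP signal), the 5 highest and 5 lowest ratios, the 5 marked bins with the highest coIP value and the 5 largest groups of equal values. Members and comparisons were chosen with earlier results of these data known. A part of a read under the tolerance, 0.0237 read, cannot be seen. Python 3.11.15, pandas 2.3.3 and scipy 1.17.1 were used. Alternatives are given in the closing section.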

Additional observations from a re-analysis of the deposited data

How the results depend on the processing

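Values are given as fractional and then whole-read bins, and only where they moved, in 107 of 180 cases. A value moved when it left the interval of the reported value. The number of fractional bins has no interval and was judged by a set factor instead. Scaling by the median of ratios, which takes the median measured bin to 0.32, gave medians 0.21 and -0.36, higher shares 13.0% and 12.0% and lower shares 22.4% and 20.9%. Totals without the top 10 bins (median measured bin 0.13) gave medians 0.0013 and -0.58, higher shares 10.3% and 9.98% and lower shares 24.1% and 23.2%. A pseudocount 10 times larger gave a fractional median of 0.60, higher shares 17.5% and 15.0% and lower shares 16.4% and 13.1%. At 2-fold the rule gave higher shares 42.9% and 29.5% and lower shares 26.4% and 26.9%. An 8-fold rule gave higher shares 7.2% and 7.32% and lower shares 14.7% and 12.4%. A tolerance of 0.011 gave off-step coIP shares 77.5% and 46.1%. A tolerance of 0.003, which is under the rounding of the file and so takes in whole-read bins, gave 6675 fractional bins, a fractional median of 0.40, a fractional arm share of 57.4% and a fractional marked share of 1.83%. It also gave off-step coIP shares 86.2% and 75.6% and a difference of medians of 0.29. N2 of 2 to 5 gave 2309 fractional bins, a whole-read median of 0.17, a whole-read higher share of 14.4% and lower shares 13.6% and 13.8%. It also gave a whole-read arm share of 43.8%, marked shares 1.13% and 0.253% and off-step coIP shares 81.9% and 59.0%. N2 of 5 to 10 gave 1166 fractional bins, medians 0.53 and -0.083, a whole-read higher share of 20.4% and lower shares 24.4% and 21.4%. It also gave a whole-read arm share of 48.6%, a whole-read marked share of 1.03% and off-step coIP shares 86.5% and 69.4%. N2 of 10 to 20 gave 874 fractional bins, a whole-read median of -0.51, higher shares 18.4% and 20.5% and lower shares 30.7% and 30.7%. It also gave a whole-read arm share of 50.3%, marked shares 5.26% and 2.61%, off-step coIP shares 88.9% and 73.5% and a difference of medians of 1.22. Counting 1 bin per run gave a fractional median of 0.45, a whole-read higher share of 17.6%, lower shares 22.6% and 19.3% and a whole-read arm share of 49.4%. It also gave a fractional off-step coIP share of 83.1% and a difference of medians of 0.37. Arms as the outer 20% gave arm shares 43.7% and 26.9%. Taking the kind from both libraries, which also selects on coIP level, gave medians 0.88 and -0.55, higher shares 22.0% and 2.4%, lower shares 17.5% and 25.6% and arm shares 64.9% and 40.1%. It also gave a whole-read marked share of 0.15% and a difference of medians of 1.43. The remaining alternatives were chosen after the data were seen. Arms alone gave medians 0.99 and 0.22, higher shares 24.8% and 22.8%, lower shares 15.9% and 16.1% and a difference of medians of 0.77. Centres alone gave medians 0.068 and 0.0302, higher shares 12.2% and 11.1%, lower shares 26.7% and 18.5% and a difference of medians of 0.038. Remainders of at least 0.1 read gave a fractional lower share of 21.2% and a fractional off-step coIP share of 86.6%. A coIP signal under 10 gave off-step coIP shares 76.5% and 47.9%. A coIP signal of 20 and over gave off-step coIP shares 93.7% and 94.1%. Leaving out X gave arm shares 61.1% and 44.3%. A pseudocount 10 times smaller, the floor subtracted and bins without a mark kept every value within its interval. The difference of medians was above 0 under every alternative listed here, but in centres the range from the 95% bounds of both medians, with bins taken as independent, was -0.138 to 0.252 and includes 0. On chromosome X alone it was -0.23, in the centre of I -0.031 and in the centre of II -0.24. The whole-read median changed sign under 5 alternatives, and for the N2 bands the cause was not tested. At the lower edge a bin rests on 8.18 N2 reads, which limits single ratios. No paired analysis was possible because there is only 1 library for either group.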

Other observations

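Some fractional bins on different chromosomes held the same pair of values. In 44 groups, 95 fractional bins (2.18%) shared both their deposited N2 and coIP value with another. The largest group had 6 bins with 2.43 in N2 and 0.1 in the coIP, at I 4709001 and 8211001, II 6746001, III 6609001, IV 5467001 and V 15672001. Groups of 3 held 2.77 and 0.1 (II 5584001, III 9890001 and V 14943001), 2.54 and 5.17 (I 4600001, IV 11654001 and V 14458001) and 2.20 and 5 (II 8047001, IV 7163001 and 10281001). A pair held 13.69 in N2 and 0.1 in the coIP, at I 2327001 and V 14283001, or 58.5 N2 reads each. Most groups lay at low values, where equal values arise easily: whole-read bins, which can take only 85 N2 values against 1175 among fractional bins, had an equal partner in 38.4% of cases.

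A search of the whole table for runs with the same profile asked that every bin lie within a log2 limit of its counterpart in both libraries, in either direction. The search and its limits were chosen after the data were seen, with the V pair already known, and the outcome depended on the limit. Within 0.2 in log2, 0 of 68 fractional runs of at least 4 bins and 0 of 205 whole-read runs had a match. Within 0.3, 2 fractional runs did, the V runs of 9 bins, which matched each other, and 0 whole-read runs. Within 0.4 the counts were 3 (4.41%) and 8 (3.90%), and the added fractional run was IV 11033001 to 11037000, whose 4 bins matched X 257001 to 261000 in reverse order. Within 0.6 they were 9 (13.2%) and 58 (28.3%), so the order of the shares turned. Apart from the V pair, the runs of at least 4 bins matched at these limits had 4 to 6 bins. Among runs of at least 3 bins the shares within 0.3 were 10.7% for fractional and 8.80% for whole-read runs, and within 0.4 they were 24.7% and 26.8%. Copies whose offset is not a multiple of 1 kb cannot be found in this way.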
